A study of Homo sapiens with 6 samples.

Results

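The solute carriers (SLC) described here are 28 genes, measured by 39 of the 54613 probe sets on each array. They were taken from the authors' deposited table of the 2411 probe sets (4.41% of all) with an unadjusted p at or under 0.05 for SHH against vehicle. A probe set was a member where its array annotation symbol, or the authors' own symbol where that was empty, was a single SLC symbol, with SLC7A11 left out. The members were therefore chosen by their difference in these same samples, and every difference between SHH-treated and untreated cells given for them is a description without a test. SLC genes whose probe sets are not in that table are unnamed here and not analysed. The cells were CCD-18Co, an established human line that the submitters label as colon fibroblasts and describe as primary colon myofibroblasts. All 6 cultures grew in medium to which 0.1% BSA had been added. Sonic hedgehog (SHH), a secreted morphogen, was added to 3 of them at a dose of 1 ug/ml over 72 h, and 3 were left untreated, a group the deposited readme calls vehicle. The culture time of the untreated cells is not stated in the labels. One cell line was used, so that the values describe that line.

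Solute carriers are membrane proteins that move small molecules across the plasma membrane or the membranes of organelles, either down a gradient or coupled to the movement of sodium, protons or another solute. They are numbered in families by sequence, and a family often shares a type of substrate: amino acids, sugars, phosphate, sulphate, metals, nucleotide sugars. Fibroblasts of the gut wall use them to supply the building blocks of matrix, among them the nucleotide sugars and the sulphate that go into proteoglycan chains. SHH acts on such cells through the receptor PTCH1 and the GLI transcription factors.

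Signals are intensities on a linear scale with 1 value per probe set and array. The 6 arrays had median signals between 94.4 and 111 and 2% trimmed means between 498.1 and 498.2, and replicates correlated across probe sets with r between 0.967 and 0.970 on the log2 scale. Differences are SHH minus untreated on the log2(intensity + 16) scale, which understates the change of dim probe sets, and their ± is limma's moderated SE with n = 3 per group. Over all probe sets the median difference was -0.05, and it was 0.04 once every array had been centred on its own median. With 3 arrays per group, precision is limited by their number. In RNA from whole cultures, fewer cells of a type and less RNA per cell cannot be told apart. Of 20 fibroblast markers, 8 had a name in the authors' table, led by the collagen chain COL6A3 at 16241 in untreated cells; 3 of the 8 were higher and 5 lower, all short of limma's adjusted threshold. Of 25 markers of epithelium, endothelium, leukocytes, glia and neurons, 3 had a name. They were KRT18, a keratin of epithelia, CD14 of monocytes and UCHL1 of neurons. In untreated cells they had mean signals of 5677, 161 and 3998, and their differences were -0.42, 0.73 and 0.67. The cultures were all of the same line, and the source of these signals and its part in the SLC differences were not tested.

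Where a gene had several named probe sets its brightest one was read, and on that reading 14 of the 28 SLC genes were higher and 14 lower with SHH. The largest differences among genes whose mean over the 6 arrays was above that of the median probe set (102) were those of the taurine transporter SLC6A6 (1.68 ± 0.21, 3.20-fold higher), of SLC12A8 (1.65 ± 0.12, 3.14-fold higher), a member of the cation-chloride cotransporter family, and of the amino acid exchanger SLC7A8 (-1.58 ± 0.34, 2.99-fold lower). SLC7A8 was above that median through its untreated arrays, since its SHH mean of 67.2 was below it. Both named sugar carriers and 4 of the 5 metal carriers were higher. The monocarboxylate family members SLC16A1 and SLC16A14 and 5 of the 7 carriers of inorganic ions were lower. The 7 amino acid carriers were divided, 4 higher and 3 lower. The difference was 1 or more in size for 6 genes, between 0.5 and 1 for 7 and under 0.5 for 15. The median difference over the 28 genes was -0.01.

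**Figure D1:**
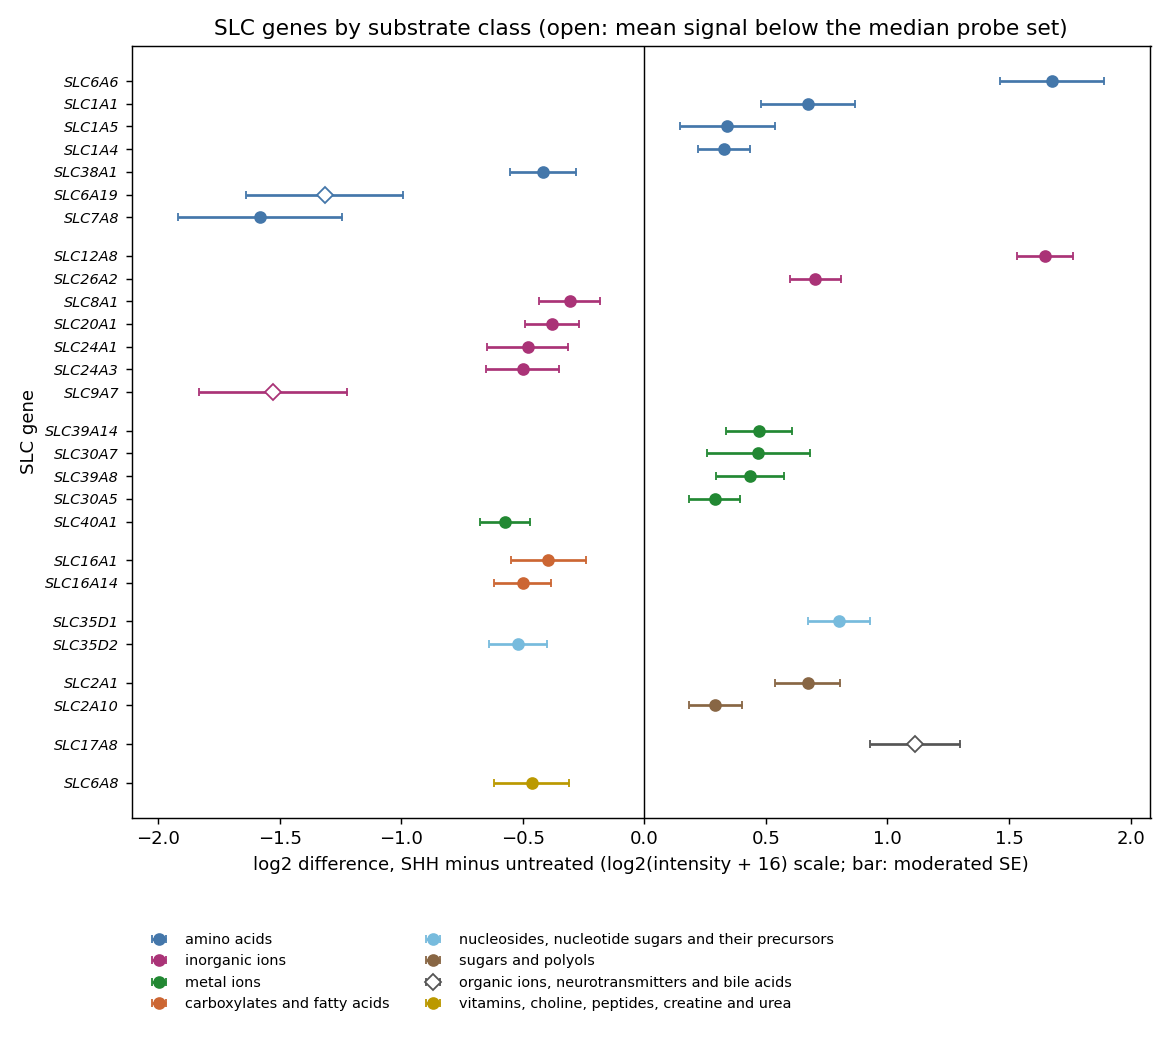
The log2 difference between SHH-treated and untreated cells (horizontal axis) is shown for 27 of the 28 SLC genes (vertical axis, grouped and coloured by substrate class), with a bar for limma's moderated SE; open diamonds mark the 3 genes dimmer than the median probe set. The genes run from -1.58 for SLC7A8 to 1.68 for SLC6A6. Both monocarboxylate family members drawn lie left of 0 and both sugar carriers right of it.

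By limma's test over all 54613 probe sets, 1 of the 39 SLC probe sets, that of SLC12A8, passed an adjusted p of 0.05, where 0.123% of all probe sets did. With an intensity trend in the fit, 15 of the 39 passed (12 higher and 3 lower) against 1.86% of all probe sets. The 3 arrays of one group lay entirely above those of the other for 38 of the 39, against 17.3% of all probe sets. Because membership itself required a low p in the same comparison, nothing is read from these shares.

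SLC6A6 carries taurine, a sulphur-containing amino acid derivative that cells use as an osmolyte, into cells together with sodium and chloride. Its brightest named probe set (205920_at) gave signals of 310.1, 458 and 453 in untreated cells and 1186, 1189 and 1621 with SHH. The groups were far apart, the lowest SHH array being 2.59 times the highest untreated one. A dimmer probe set (205921_s_at) went from 245 ± 59.1 to 629.5 ± 104 (SD, n = 3), a log2 difference of 1.32 ± 0.22. One more probe set (228754_at) is not counted, since the array annotation assigns it to GRIP2 and the authors to the 3' side of SLC6A6; these genes overlap in the RefSeq annotation of GRCh38.p14. It was brighter than both, with signals of 4775, 4790.1 and 4855 in untreated and 8968, 8674 and 8582 in SHH-treated cells, and a smaller log2 difference of 0.86 ± 0.10.

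The other amino acid carriers that were higher take up acidic or small neutral amino acids. SLC1A1, a sodium-coupled transporter of glutamate, aspartate and cysteine, had signals of 241, 232 and 297 untreated and 343, 526 and 402 with SHH, a difference of 0.67 ± 0.19. All SHH arrays were above all untreated ones, with SHH replicate 2 the highest. The related exchangers of small neutral amino acids, SLC1A4 and SLC1A5 (the latter a main route for glutamine), were brighter and differed less. SLC1A4 went from 3088 ± 109.8 to 3882 ± 243 (SD, n = 3; 0.33 ± 0.11), and all 3 of its probe sets lay between 0.30 and 0.36. SLC1A5 went from 3661 ± 839 to 4568 ± 285 (SD, n = 3; 0.34 ± 0.19) and was the one member whose groups overlapped: untreated replicate 2, at 4476, was above SHH replicate 2, at 4321. Without untreated replicate 3, the lowest array, the SLC1A5 difference was 0.16.

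Among the amino acid carriers that were lower, SLC7A8 is the light chain of an exchanger of large neutral amino acids, which works bound to the heavy chain SLC3A2. Its signals were 279, 316 and 135 in untreated and 63.3, 52.7 and 85.4 in SHH-treated cells. The untreated arrays were themselves spread 2.33-fold, with replicate 3 low, but all of them exceeded the SHH arrays. The probe set (202752_x_at) carries the suffix that marks probes shared with other transcripts, and the share of its signal from other transcripts was not tested. SLC38A1, a sodium-coupled carrier of glutamine, had signals of 860.0, 742 and 658 untreated and 542, 542 and 585 with SHH, a difference of -0.42 ± 0.14. SLC6A19, known as the neutral amino acid transporter of intestinal and renal epithelium, was dim, at 47.9 ± 22.1 untreated and 8.89 ± 5.00 with SHH (SD, n = 3). Its difference of -1.31 ± 0.32 became -2.35 with a pseudocount of 1 and -0.60 with one of 64, and the authors place its probe set (231480_at) on the 3' side of the gene.

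**Figure D2:**
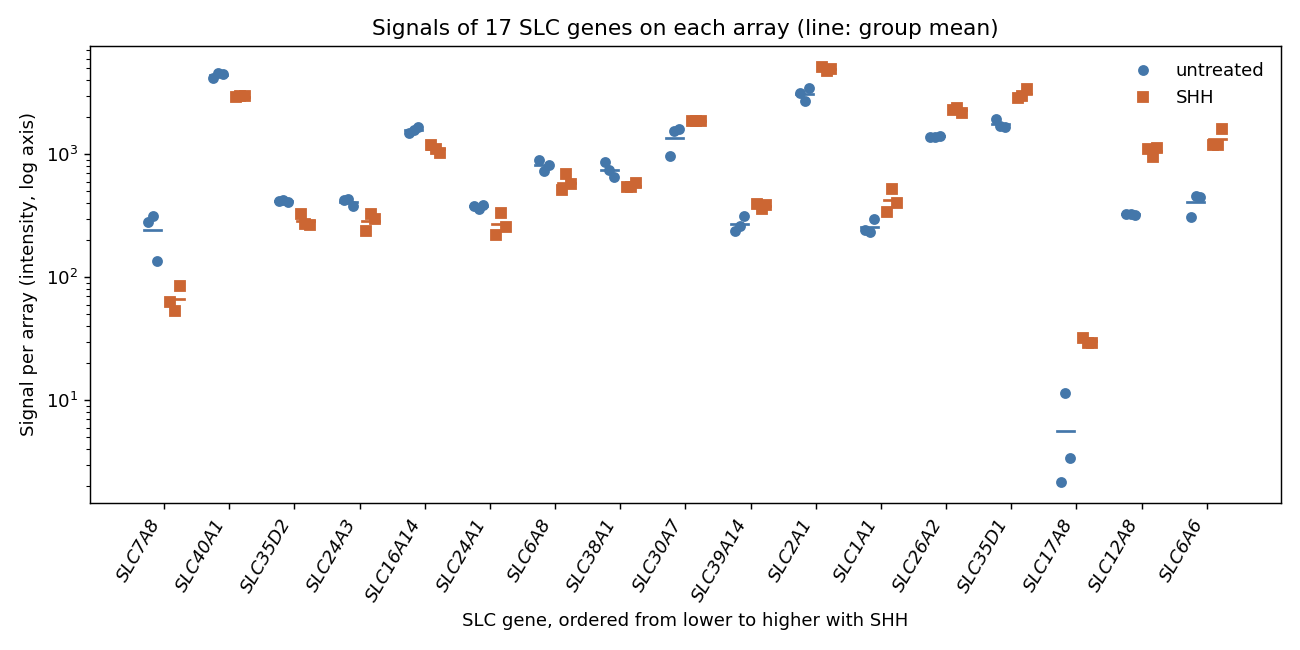
Signal on each array (vertical axis, intensity on a log axis) for 17 SLC genes, the 8 in each direction with the largest difference among those brighter than the median probe set and SLC17A8 as the one gene of its class, ordered along the horizontal axis from lower to higher with SHH; circles are the 3 untreated and squares the 3 SHH-treated arrays, and lines are group means. The groups do not overlap for any of the 17, against 17.3% of all probe sets, which the choice of genes by their difference largely fixes, and the gap is widest relative to the spread for SLC12A8, SLC26A2 and SLC40A1.

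SLC12A8 belongs by sequence to the family of sodium, potassium and chloride cotransporters, and its substrate is debated, since work in mice described it as a transporter of nicotinamide mononucleotide. Its signals were 329.8, 324 and 323 in untreated and 1106, 951 and 1120.1 in SHH-treated cells (219874_at). In relation to their mean, the untreated values were closer together than those of any other of the 28 genes. The lowest SHH array was 2.88 times the highest untreated one, and the difference was between 1.52 and 1.73 in every setting tried. It stayed between 1.61 and 1.72 when any 1 array was left out, although not 1 probe set on the arrays then passed limma's adjusted threshold.

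SLC26A2, the sulphate transporter that feeds the sulphation of proteoglycans and is mutated in a group of chondrodysplasias, was the other carrier of inorganic ions that was higher. Its signals were 1379, 1398 and 1419.9 in untreated and 2313, 2405 and 2153 in SHH-treated cells (224959_at), a difference of 0.70 ± 0.10. The groups were well separated, and the other named probe sets of the gene lay at 0.63 and 0.69. SLC35D1, which brings UDP-glucuronic acid and UDP-N-acetylgalactosamine, the precursors of chondroitin sulphate, into the endoplasmic reticulum, is likewise mutated in a skeletal dysplasia. Its signals were 1945, 1687 and 1675 untreated and 2883, 3012 and 3390.2 with SHH (209711_at), a difference of 0.80 ± 0.13. No array of either group reached the other group, and its 3 probe sets lay at 0.80, 0.75 and 1.27, the last the dimmest of them. The related Golgi carrier of nucleotide sugars SLC35D2 was lower, with signals of 419, 424 and 413 untreated and 326, 273 and 267 with SHH (-0.52 ± 0.12), so that the 2 named nucleotide sugar carriers differed in opposite directions.

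The other 5 carriers of inorganic ions were lower, and 3 of them exchange sodium for calcium. SLC24A3, which couples sodium and potassium to calcium, had signals of 424, 435 and 379 untreated and 240.1, 326 and 299.7 with SHH, a difference of -0.50 ± 0.15. SLC24A1, its relative best known from rod photoreceptors, had signals of 384, 359 and 388 untreated and 221, 331 and 256 with SHH, a difference of -0.48 ± 0.17. In both of these probe sets SHH replicate 2 was the highest of its group and came nearest to the untreated arrays. In the dimmer named probe set of SLC24A3 (219090_at), at -0.72 ± 0.24, SHH replicate 1 was the highest of its group instead. The sodium-calcium exchanger of heart and smooth muscle, SLC8A1, went from 2259.7 ± 216 to 1821 ± 135 (SD, n = 3; -0.31 ± 0.13), and its second probe set lay at -0.40. The phosphate transporter SLC20A1 went from 2752 ± 161 to 2112 ± 115 (SD, n = 3; -0.38 ± 0.11). SLC9A7, a sodium-proton exchanger of the trans-Golgi network, was dim, at 73.6 ± 30.2 untreated and 14.5 ± 7.46 with SHH (SD, n = 3), and its difference of -1.53 ± 0.30 ranged from -2.29 with a pseudocount of 1 to -0.79 with one of 64.

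Zinc and iron carriers made up the metal class. SLC40A1 is ferroportin, the exporter of iron from cells, and was the only one of the 5 that was lower. Its signals were 4169, 4564 and 4493 in untreated and 2903, 2981 and 2983 in SHH-treated cells (223044_at), a difference of -0.57 ± 0.10. The SHH arrays differed little from each other (SD 1.54% of their mean), and all were below the lowest untreated array. SLC39A14, an importer of zinc, iron and manganese, was higher, with signals of 239, 261 and 313 untreated and 396, 361 and 385 with SHH (0.47 ± 0.14). Its relative SLC39A8, which imports zinc and manganese, went from 515 ± 59.6 to 701 ± 66.0 (SD, n = 3; 0.43 ± 0.14). SLC30A7 and SLC30A5 load zinc into the early secretory pathway. SLC30A7 had signals of 976, 1540.4 and 1598 untreated and 1855, 1873 and 1853 with SHH, a difference of 0.47 ± 0.21 that was 0.24 without untreated replicate 1. That array was far below the other untreated ones, and for this probe set (240277_at) the name comes from the array annotation alone. SLC30A5 went from 2321 ± 114 to 2838 ± 116 (SD, n = 3; 0.29 ± 0.11), read from a probe set with the shared-probe suffix (218989_x_at), and its other probe set (1555334_s_at) lay at 0.35.

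Both named sugar carriers were higher. SLC2A1, the widely expressed facilitative glucose transporter, had signals of 3154, 2714 and 3488 untreated and 5166, 4732 and 4979 with SHH (201250_s_at), a difference of 0.67 ± 0.13. The groups did not overlap, and a dimmer probe set gave almost the same difference, 0.66. SLC2A10, whose loss causes arterial tortuosity syndrome in people, went from 3084 ± 93.0 to 3784 ± 260.2 (SD, n = 3; 0.29 ± 0.11).

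The monocarboxylate family members SLC16A14 and SLC16A1 were lower. SLC16A14, whose substrate is poorly defined, had signals of 1481, 1566 and 1683 in untreated and 1198, 1101 and 1034 in SHH-treated cells, a difference of -0.50 ± 0.12 with no overlap. SLC16A1, which carries lactate and pyruvate with a proton, went from 679 ± 56.3 to 515 ± 85.0 (SD, n = 3; -0.40 ± 0.15), and its groups only just failed to meet, with SHH replicate 1 at 613 and untreated replicate 2 at 626. The creatine transporter SLC6A8, the one named gene of its class, had signals of 897, 732 and 820.3 untreated and 510.0, 686 and 574 with SHH, a difference of -0.46 ± 0.16, with SHH replicate 2 close to the lowest untreated array. SLC17A8, a vesicular glutamate transporter of neurons, was the dimmest member, with signals of 2.15, 11.5 and 3.37 untreated and 32.1, 29.2 and 29.1 with SHH. Its difference was 1.11 ± 0.18 with the pseudocount of 16, 2.48 with 1 and 0.44 with 64, and only 13.4% of all probe sets had a mean signal at or below its own.

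Of the 28 genes, 8 had more than 1 named probe set, 19 in all, and in each of the 8 every named probe set lay in the same direction. Probe sets of the same gene that are not in the authors' table are unnamed here, so that unchanged ones could not have been seen. The difference varied little between the probe sets of SLC1A4, SLC26A2, SLC2A1, SLC30A5 and SLC8A1, by at most 0.09. It varied by 0.51 in SLC35D1, by 0.36 in SLC6A6 and by 0.22 in SLC24A3.

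**Figure D3:**
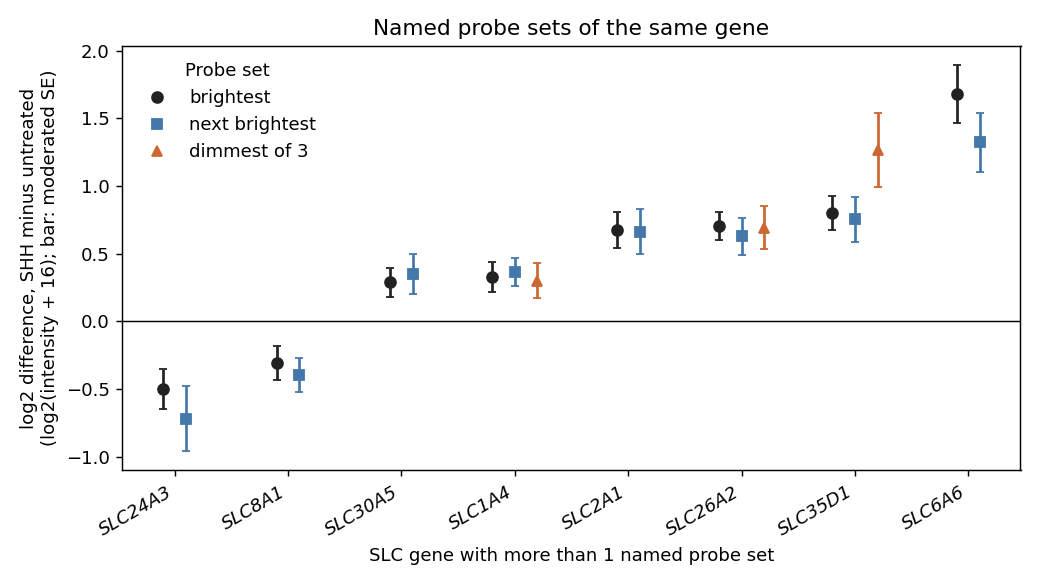
The log2 difference (vertical axis, bar for limma's moderated SE) of each named probe set is shown for the 8 SLC genes with more than 1 (horizontal axis), with markers for the brightest, the next and the dimmest probe set. All named probe sets of a gene lie on the same side of 0, and SLC35D1 shows the widest spread, from 0.75 to 1.27.

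Of the 28 genes, 25 had a mean signal at or above the median probe set, and the 3 dimmer ones (SLC17A8, SLC6A19 and SLC9A7) all had differences over 1 in size. Relative to their mean, the untreated values of these 3 were more spread than those of any other of the 28 genes. With such a spread, a low p requires a large difference, so the rule that chose the members favours this and nothing is read from it. Differences over 1 were also found in SLC7A8, SLC12A8 and SLC6A6, the brightest of them with a mean signal of 869.7. Among the genes brighter than SLC6A6 the largest difference was 0.80, that of SLC35D1. Among all probe sets the median size of the difference was 0.20, and it was 0.12 among the 13265 with a mean signal of 500 or more. Among the members close to the limit that chose them was SLC16A1, at p = 0.0497 in the authors' deposited table, with a difference of -0.40; probe sets just outside the limit are unnamed here.

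**Figure D4:**
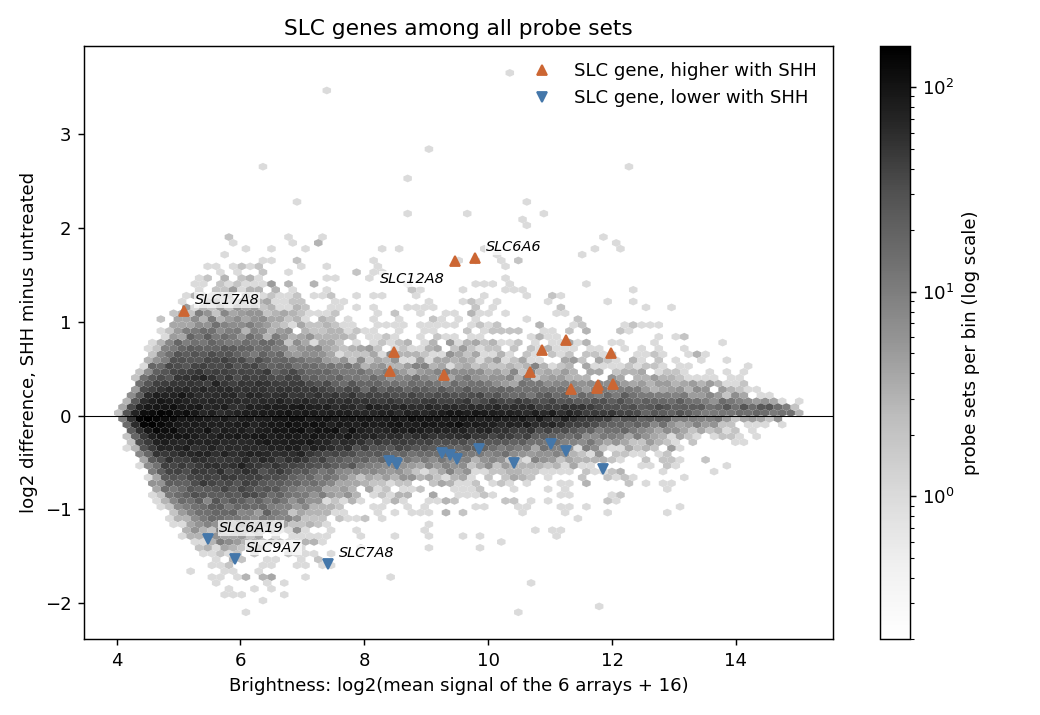
The log2 difference between SHH-treated and untreated cells (vertical axis) is plotted against the mean signal of the 6 arrays (horizontal axis, log2(signal + 16)) for all 54613 probe sets (grey bins, darker for more probe sets) and the brightest probe set of each SLC gene (triangles). The SLC genes lie away from 0 at every brightness, as the rule that chose them requires, and the 6 with a difference of 1 or more are labelled.

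The promoter windows of RefSeq (GRCh38.p14, 250 bases before to 50 after the start of a gene) were matched for 23 of the 28 genes; SLC16A1, SLC24A3, SLC39A14 and SLC6A6 are among those without a match. They are shown for the 3 higher genes with wide gaps between the groups, SLC12A8, SLC26A2 and SLC35D1, and for the tightly lower SLC40A1, as the 250 bases before the start. Capitals mark the letters of the 4 motifs searched, which are spelled out after the sequences. In these 4 stretches they are found at 1 place in SLC26A2, where matches on both strands overlap.
SLC12A8, chr3:125211400-125211649, minus strand: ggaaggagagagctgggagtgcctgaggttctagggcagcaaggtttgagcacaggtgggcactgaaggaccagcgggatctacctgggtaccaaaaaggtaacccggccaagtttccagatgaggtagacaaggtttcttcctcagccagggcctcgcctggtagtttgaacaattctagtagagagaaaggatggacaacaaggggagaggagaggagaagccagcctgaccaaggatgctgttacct
SLC26A2, chr5:149960508-149960757, plus strand: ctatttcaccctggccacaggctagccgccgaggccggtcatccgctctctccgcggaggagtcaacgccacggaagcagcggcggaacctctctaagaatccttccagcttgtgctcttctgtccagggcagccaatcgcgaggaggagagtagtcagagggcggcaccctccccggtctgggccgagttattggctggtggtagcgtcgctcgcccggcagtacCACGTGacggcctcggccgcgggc
SLC35D1, chr1:67054149-67054398, minus strand: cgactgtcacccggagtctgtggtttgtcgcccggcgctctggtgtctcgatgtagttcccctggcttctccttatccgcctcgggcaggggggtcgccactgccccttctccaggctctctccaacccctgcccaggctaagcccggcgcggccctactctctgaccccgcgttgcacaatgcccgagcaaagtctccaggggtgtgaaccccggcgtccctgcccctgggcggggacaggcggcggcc
SLC40A1, chr2:189580787-189581036, minus strand: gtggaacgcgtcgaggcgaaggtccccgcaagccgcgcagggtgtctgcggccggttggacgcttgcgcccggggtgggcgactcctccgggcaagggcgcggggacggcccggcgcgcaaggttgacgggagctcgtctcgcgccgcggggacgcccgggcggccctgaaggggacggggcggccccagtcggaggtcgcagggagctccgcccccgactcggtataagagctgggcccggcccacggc
The motifs were searched on both strands of the full windows. The GLI binding motif GACCACCCA was in 0 of the 23 windows and in 0.249% of all 27305 RefSeq windows, and the amino acid response motif TTGCATCA, bound by ATF4, in 0 of the 23 and 0.923% of all. The core of the hypoxia response element, ACGTG, was in 6 of the 23 windows (26.1%) and 21.6% of all. It was found in SLC1A4, SLC26A2, SLC2A10, SLC30A5 and SLC39A8, which were higher, and in SLC20A1, which was lower; in SLC26A2 and SLC20A1 matches on both strands overlap. The metal response core was searched only as TGCACNC. This form was in 2 of the 23 windows (8.70%), those of SLC16A14 and SLC24A1, and in 11.9% of all. It was not in the windows of the metal carriers matched, where other forms of the core were not searched for. A match is a run of letters and not a measured site, and a motif that was not found is only missing from these windows. The 250 bases before the start had a median GC content of 66.4% in the 12 matched genes that were higher and of 66.0% in the 11 that were lower, and of 58.0% over all windows.

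Other genes that work with solute carriers were read from lists chosen by function. As for the SLC genes, a name required a row in the authors' deposited table, which holds 4.41% of all probe sets by their p, so that these genes too were chosen by their difference, and nothing is read from their counts. Sodium-coupled carriers depend on the gradient made by the sodium-potassium pump. Of 16 genes of sodium-potassium, calcium and copper pumps, 5 had a name; 3 were higher and 2 lower, all short of limma's adjusted threshold. The beta subunits ATP1B1 and ATP1B3 lay in opposite directions, at -0.49 ± 0.10 and 0.36 ± 0.14. The plasma membrane calcium pumps ATP2B1 and ATP2B4 lay at -0.32 and 0.72. None of 15 proton pump genes had a name. Of 26 ABC transporters, the other large class of membrane transporters, 3 had a name and all 3 were higher: ABCG2 passed limma's adjusted threshold (0.123% of all probe sets did) at 1.52 ± 0.11, and ABCC4 at 0.89 and ABCC1 at 0.58 did not. Of 14 regulators of cation-chloride carriers and sodium-proton exchangers, the kinases WNK1, at -0.51 ± 0.16, and SGK1, at -0.34 ± 0.11, had a name, both lower and neither past the threshold. Of 18 genes of amino acid metabolism and its stress response, 5 had a name, of which 2 were higher and 3 lower, again short of the threshold: the synthesis enzymes ASNS and PSAT1 lay at 0.30 and 0.36, and the lipoprotein receptor VLDLR and the amino acid sensing kinase EIF2AK4 at -0.42 and -0.31.

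A last probe set beside the rule (236508_at), which has no array symbol and which the authors place on the 3' side of SLC6A5, was not counted. It had signals of 87.1, 122 and 155 in untreated and 12.8, 97.9 and 13.1 in SHH-treated cells, and its groups overlapped through SHH replicate 2.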

How the data were processed

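Total RNA of 6 cultures was labelled as biotin cRNA and hybridised to single-colour Affymetrix arrays, per the labels' protocols. The deposited value table holds 1 intensity per probe set and array; the steps from image to signal and the array's design are not stated in the labels or headers, and the near-equal trimmed means may come from a scaling by the authors. Groups and replicate numbers came from the sample titles. The design text calls the replicates biological. Gene names, the p-value that chose the members and a log2 fold change came from the authors' deposited table (a Cyber-T test, per the deposited readme; its direction of untreated minus SHH was turned here). No coordinates of the arrays are given, because no build is named for them.

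The comparison of the groups used limma 3.58.1 under R 4.3.3 (lmFit, then eBayes; 2-sided) on log2(intensity + 16) over all 54613 probe sets without a filter, with Benjamini-Hochberg adjustment and a threshold of 0.05. Tables were made in Python 3.11.15 with pandas 2.3.3. Substrate classes follow the SLC family number, or the single gene where a family carries several kinds of substrate (in family SLC6, SLC6A6 and SLC6A19 are under amino acids and SLC6A8 under creatine). Values on all arrays are given for the 8 genes per direction with the largest difference among those at or above the median brightness, and for the gene with the largest difference in each class. The members, classes, lists, motifs and alternatives were chosen with earlier results of these data known. A few genes that enter the counts are not reported here by name. No set test or test of a list was run. Same-numbered arrays of the groups did not deviate together (correlations of deviations 0.02, 0.01 and -0.04), and no source ties a number to a shared day, so no block was used.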

Additional observations from a re-analysis of the deposited data

How the results depend on the processing

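The counts of 14 SLC genes higher and 14 lower were the same under every alternative tried except the filter on dim probe sets, which leaves out the 3 dim genes and gave 13 and 12. No single gene changed sign, but many of the 445 values over the alternatives could not move. The intensity trend, plain or robust, the replicate block and the filter change only the test and leave each difference as it was. The mean of all named probe sets is the same value for the 20 genes with 1 probe set. Under the trends and the block the counts of higher and lower genes could not change either. Of the 445 values, 428 moved by less than 1 SD between replicates, these among them, and 17 by more. The moves were those of SLC17A8, SLC6A19 and SLC9A7 with the pseudocount or the authors' fold change, of SLC12A8 with a pseudocount of 64 (1.52), of SLC35D1 as the mean of its probe sets (0.94), and of 6 genes with arrays centred on their medians.

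The calls depended on the setting, and quantile normalization moved them least. It left 66 probe sets past limma's adjusted threshold (49 higher, 74.2%), with 1 SLC probe set among them, against 67 without it. The 67 probe sets past limma's adjusted threshold (45 higher, 67.2%), of which 1 is an SLC probe set, became 34 with arrays centred on their medians (32 higher, 94.1%), with 1 SLC probe set among them, 0 with a pseudocount of 1 (5009 at an unadjusted p under 0.05) and 295 with a pseudocount of 64. They became 555 with the filter on dim probe sets, where 27307 were tested, 1014 with a prior that follows intensity (the intensity trend) and 905 where that trend was fitted robustly. The SLC count was 0 with a pseudocount of 1, 4 with 64, 7 with the filter and 15 with either trend. With the replicate number as a block the counts were 0 of all and 0 of the SLC probe sets (4746 and 25 at an unadjusted p under 0.05). Without any 1 of the 6 arrays both were 0 (4411 to 5180 and 25 to 28 at an unadjusted p under 0.05). With an intensity trend, and leaving out 1 array, settings combined after seeing the data, all probe sets past the threshold numbered 804, 553 and 757 for the untreated replicates in order and 524, 492 and 503 for the SHH ones, with 13, 10, 12, 9, 7 and 8 SLC probe sets among them. The cause of these moves was not tested.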
